A study of Danio rerio with 14 samples.

Results

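The genes described here were gained in every retina of the choroideremia zebrafish chmru848. A gene was chosen when its lowest value among 7 chmru848 retinas lay above its highest value among 7 wt retinas and when the mean of the chmru848 retinas exceeded the mean of the wt retinas by 3 or more on the deposited log2 scale. Of 19859 genes, 105 met both thresholds, which is 0.529% of the table, and 92 of these were kept after 13 genes whose identifiers appear in the study's own lists of cytokine, stress, apoptosis and glucose genes had been left out. il12a and il11b, cytokines that the study also names in its text, stayed among the 92 because their identifiers are not in those lists. Separation of the groups alone was met by 1496 genes (7.53%). Because the comparison of chmru848 with wt retinas chose these genes, their differences are given as a description and carry no test. The absence of overlap between the groups in each of the 92 genes likewise follows from the choice.

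Retinas with the retinal pigment epithelium (RPE) included were dissected at 5 days post-fertilization from chmru848 zebrafish, which carry a mutation in chm, and from wild-type AB zebrafish (wt), with 7 zebrafish per group. Total RNA was turned into bulk RNAseq libraries with SMART-Seq v4, a kit for low inputs that amplifies full-length cDNA. The labels do not say whether the 2 groups shared clutches or dissection days, and the mutation is carried by the whole animal and is not restricted to the retina. In bulk retina, a change in the number of cells of a type and a change in RNA per cell cannot be told apart.

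The gene chm encodes Rab escort protein 1, which presents newly made Rab GTPases for prenylation, the lipid modification that lets Rab proteins hold on to membranes. Injured vertebrate retinas are known to switch on AP-1 and ATF transcription factors within hours, together with cytokines of the interleukin-6 and leptin type that signal through Jak and Stat3. In zebrafish, the same signals are known from Muller glia that re-enter the cell cycle and replace lost neurons, a response that mammalian retinas mostly lack.

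The deposited values were also turned back into normalised counts, which are read counts corrected for sequencing depth but not for gene length, so that levels are compared between retinas and not between genes. The estimated depth was 14.2 to 29.4 M (mega) reads in chmru848 retinas and 18.0 to 26.3 M in wt retinas (exact two-sided permutation test, p = 0.784, 7 against 7). The number of genes with no reads was 369 to 1983 in chmru848 retinas and 317 to 628 in wt retinas (exact two-sided permutation test, p = 0.0385), and it was highest in chmru848 retinas 1, 2 and 4. Without these 3 retinas, the same thresholds gave 96 genes, 84 of them among the 92. The transcript of chm itself had 216 to 492 normalised counts in chmru848 retinas and 264 to 432 in wt retinas. The groups overlapped, and limma gave a difference of -0.22 with an adjusted p of 0.358, so that its RNA level did not serve as a check of the genotype. Of 9 photoreceptor markers 7 were matched and 6 were lower, and their sum was 73620 to 450372 normalised counts in chmru848 retinas and 237071 to 1946398 in wt retinas, so that the labelled tissue was present in all libraries. Of 6 RPE markers 4 were matched and 3 were lower, and of the matched lens, skeletal muscle, erythrocyte and vessel markers, 1 of 4, 0 of 2, 1 of 3 and 1 of 3 were lower and none was higher. Beside these marker counts, 23.7% of all tested genes were lower and 19.9% higher in limma. The p-values given here set a group difference against the spread between these retinas. Gene names are those that the annotation pairs with the Ensembl identifiers, and 85 of the 92 genes had one. Capital symbols are borrowed from mammals and can stand for more than 1 zebrafish gene.

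The gain ranged from 3.01 to 7.62 on the log2 scale, with a median of 3.87. In 15 genes it was 5 or more, in 25 genes between 4 and 5, and in 52 genes between 3 and 4. The median gene averaged 1193 normalised counts in chmru848 retinas (range over genes 164 to 76256) and 38.4 in wt retinas (range 0 to 5807). Among the 70 genes with a wt mean of 10 or more, the ratio of the group means was 5.71 to 439.9, with a median of 22.1. The space between the groups was wide for most genes. The lowest chmru848 retina exceeded the highest wt retina by 2.11 log2 units in the median gene, by more than 1 unit in 78 genes and by only 0.10 units in the narrowest case, si:ch1073-190k2.1. Together the 92 genes took up 1.16 to 2.51% of all normalised counts in chmru848 retinas, against 0.0675 to 0.178% in wt retinas. All 92 passed an adjusted p threshold of 0.05 in limma, where 19.9% of the 19751 tested genes were higher and 23.7% lower (43.7% in either direction), and this follows from how they were chosen.

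**Figure D1:**
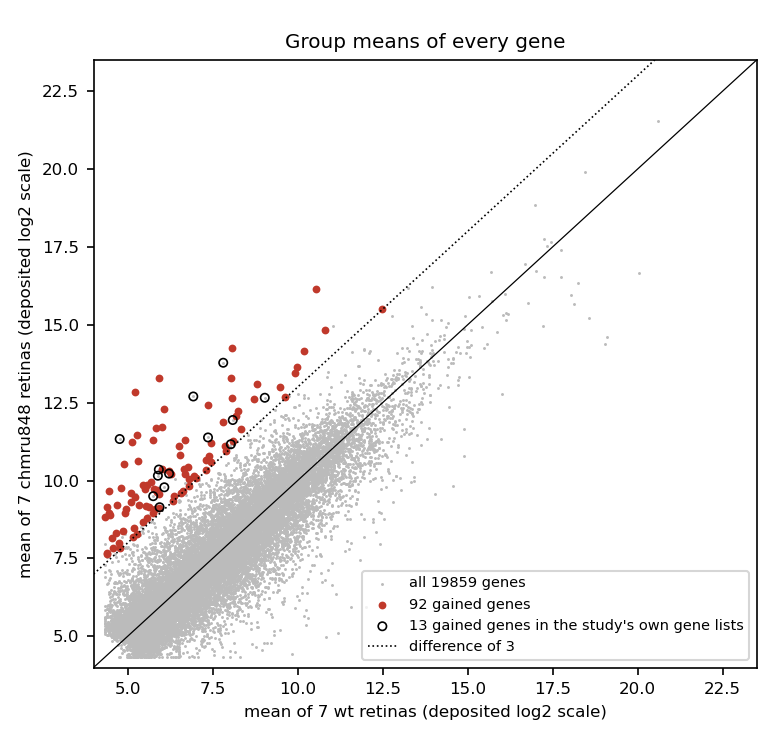
Group means of every gene on the deposited log2 scale, with 7 chmru848 retinas on the vertical axis and 7 wt retinas on the horizontal axis; grey points are all 19859 genes, red points the 92 gained genes, open circles the 13 gained genes of the study's own lists, the solid line equality and the dotted line a difference of 3. The red points reach from the lowest wt values up to a wt mean of 12.47, and the largest distance from the line of equality is 7.62.

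The wt baseline differed widely between these genes. In 6 genes every wt retina lay under 3 estimated reads, the limit taken here for a gene to be seen, and in 16 further genes the wt mean was under 10 normalised counts. Another 43 genes had a wt mean of 10 to under 100, 22 of 100 to under 1000, and 5 of 1000 or more. The mean in chmru848 retinas had a median of 500.2 over the genes of the first class, 563 over the second, 1007 over the third, 4339 over the fourth and 30204 over the fifth. No chmru848 retina lay under 3 reads for any of the 92 genes, while 36 genes had at least 1 wt retina under that limit. Genes that were close to silent in wt retinas therefore stood beside genes such as GPX4, JUN and TCIM that wt retinas already expressed. The 92 genes also included 22 with a wt mean under 10, where 9.40% of all tested genes had one. The choice itself used the wt values, so that these shares are not read as a result about the genes.

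The gene with the largest difference encodes a GTPase of membrane traffic. arf4b, a member of the ADP-ribosylation factor family that acts in vesicle formation at the Golgi, had 2945 (lowest), 6599.5 (median) and 21042 (highest) normalised counts in chmru848 retinas, against 0, 8.24 and 22.4 in wt retinas. Its difference was 7.62, the groups were far apart, and chmru848 retina 7 stood highest. zgc:110286, a protein-coding gene of unstated function, had 1141, 2590.2 and 11582 normalised counts in chmru848 retinas, against 0, 3.62 and 67.6 in wt retinas, a difference of 6.21. It had the same lowest and highest chmru848 retinas as arf4b, retinas 2 and 7. In the RefSeq order of the assembly GRCz12tu these genes lie on chromosome 11 with 1 gene between them, and they were the only pair of the 57 genes found there that lay within 5 genes of each other. Over the 7 chmru848 retinas their values had a Pearson r of 0.93, a description of 7 points from libraries that share depth and tissue. The gene between them, si:ch1073-165f9.2, had 80.2 to 642 normalised counts in chmru848 retinas and 26.8 to 57.0 in wt retinas (difference 1.56, adjusted p = 0.000483, limma), and the paralogue arf4a had 195 to 321 in chmru848 retinas and 59.4 to 108 in wt retinas (difference 1.23, adjusted p = 2.49e-05, limma). Both were higher without overlap, by far less than arf4b.

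Further genes tied to membranes and large particles were MVP and RABAC1. MVP, the main protein of the vault ribonucleoprotein particle, had 2954, 5906 and 7132 normalised counts in chmru848 retinas, against 57.8, 126 and 248 in wt retinas (difference 5.09). The lowest value among chmru848 retinas belonged to retina 6. RABAC1 encodes a Golgi protein that in mammals binds prenylated Rab GTPases, the products of the reaction that the chm protein serves. It had 1613, 1979 and 2516 normalised counts in chmru848 retinas, against 151, 192 and 270.1 in wt retinas (difference 3.06). Both groups were tight, with an SD of 0.22 log2 units among chmru848 retinas and 0.26 among wt retinas.

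**Figure D2:**
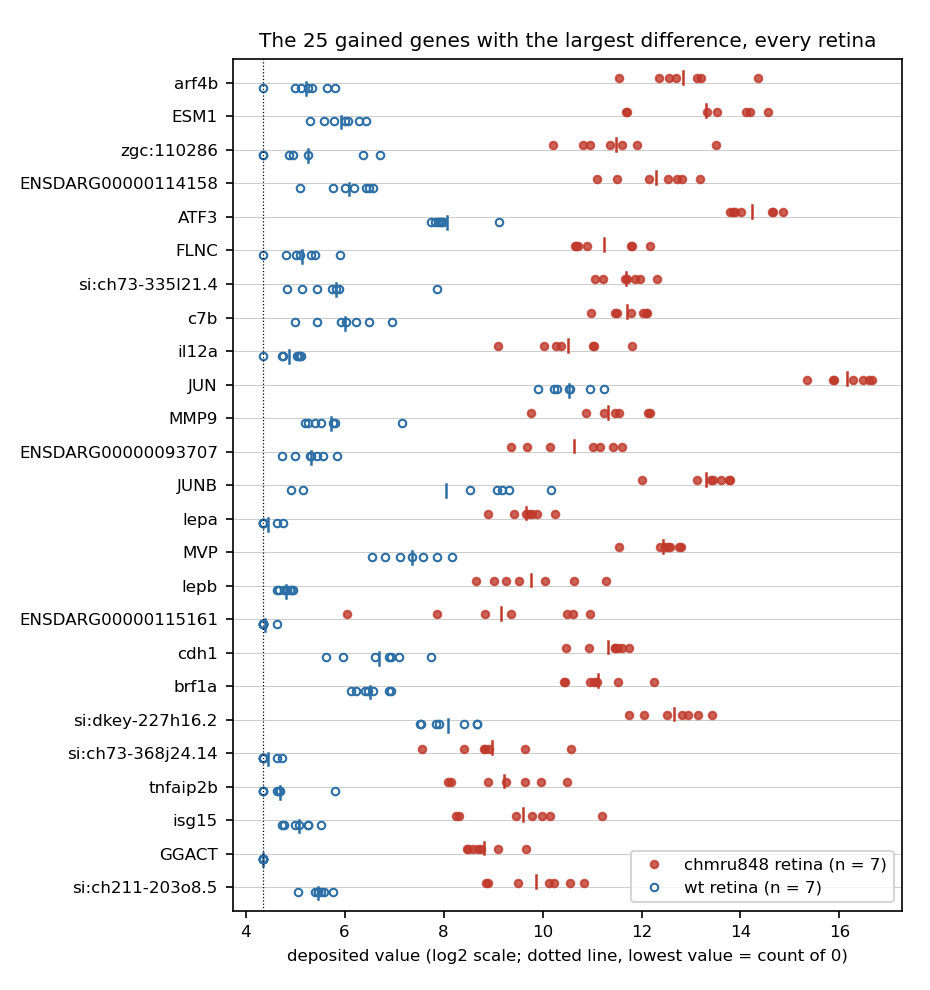
Deposited log2 values of the 25 genes with the largest difference, with filled red points for the 7 chmru848 retinas, open blue points for the 7 wt retinas and vertical ticks for the group means; the dotted line marks the value of a count of 0. No red point lies at or below a blue point of the same gene, as the choice requires, and the differences run from 7.62 in arf4b at the top to 4.39 in si:ch211-203o8.5 at the bottom.

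Transcription factors of the bZIP class, which bind DNA as dimers and include AP-1, made up 8 of the 92 genes with a median difference of 4.24. The role groups were formed after the values were seen, and the share of each role over all genes was not counted. Group sizes and medians, here and below, are therefore descriptions and are not read as an excess of a role. ATF3, induced by many kinds of cell stress and by axon injury, had 14125, 16485 and 29750.0 normalised counts in chmru848 retinas, against 177, 203 and 514 in wt retinas (difference 6.18). JUN, the core AP-1 subunit, had the largest normalised count of all 92 genes without regard to gene length, with 41442, 78829 and 102936 in chmru848 retinas, against 921, 1440.0 and 2389 in wt retinas (difference 5.62). Every chmru848 retina exceeded every wt retina by more than 4 log2 units in both genes. FOSL1, an AP-1 partner of JUN, had 749, 1407 and 1699 normalised counts in chmru848 retinas, against 8.79, 25.9 and 138 in wt retinas (difference 4.38). CEBPB, a regulator of acute-phase and inflammatory genes, came closest to overlap in this group, with 2884, 3634 and 7835 normalised counts in chmru848 retinas and 72.1, 209 and 1437 in wt retinas (difference 3.91). The highest wt value of ATF3, FOSL1 and CEBPB came from the same animal, wt retina 6.

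JUNB, a further AP-1 subunit, showed a different spread. It had 4109, 11063 and 14019 normalised counts in chmru848 retinas, against 3.29, 500.0 and 1110 in wt retinas (difference 5.25). In 5 wt retinas the values lay between 332 and 1110, while wt retinas 6 and 7 had 6.65 and 3.29, so that the wt group itself was split. Without those 2 retinas, chosen after their values were seen, the difference was 4.05. The stress regulators atf5a and atf5b, a pair of zebrafish copies of a factor of the mitochondrial unfolded protein response in mammals, had 387 to 2718 and 1271 to 3114 normalised counts in chmru848 retinas, against 20.4 to 98.0 and 79.9 to 162 in wt retinas. batf2 had 63.4 to 404 normalised counts in chmru848 retinas and 0 to 11.3 in wt retinas. None of these 3 genes overlapped between the groups, as the choice requires.

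Other members of a list of 17 immediate early and stress factors are described with limma. The thresholds had been applied to them too, and the study reports ddit3 as upregulated in these retinas. Their p-values and counts are therefore no independent support. This list was chosen with earlier results of these data known. The names of 13 could be matched, 3 of them being JUN, ATF3 and CEBPB. Of the 10 others 4 were higher, where 19.9% of all tested genes were higher, and 6 did not pass. Their median difference was 0.56, beside -0.06 over all tested genes. The list also holds fosl1a, junba and junbb, which were not matched by name. FOSL1, which RefSeq names fosl1a, and the identifiers named JUNB are therefore outside these counts. fosl2, an AP-1 subunit, had 1644 to 3549 normalised counts in chmru848 retinas and 366 to 688 in wt retinas (difference 2.27 ± 0.20 SE, adjusted p = 1.41e-07, limma). ddit3, a factor of endoplasmic reticulum stress, had 7229 to 15792 in chmru848 retinas and 960 to 3140 in wt retinas (difference 2.59 ± 0.24 SE, adjusted p = 2.45e-07, limma). egr1, an early gene of neuronal activity, overlapped widely with 2602 to 5610 normalised counts in chmru848 retinas and 1109 to 8213 in wt retinas (difference 0.29, adjusted p = 0.512, limma), and egr2a, egr3, ier2b, cebpd and maff also missed the threshold.

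Secreted signals, receptors and their kinases accounted for 8 genes with a median difference of 4.40. ESM1, a proteoglycan that endothelial cells secrete in mammals, had 3271, 11765 and 24038 normalised counts in chmru848 retinas, against 9.14, 29.6 and 50.6 in wt retinas, and its difference of 7.38 was the second largest. il12a, a subunit of interleukin-12, had 506, 1290.3 and 3537 in chmru848 retinas, against 0, 4.82 and 5.82 in wt retinas (difference 5.64). Both genes varied several-fold among chmru848 retinas while the wt retinas stayed near the limit of detection for il12a.

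Both zebrafish leptins were gained. lepa had 434, 809 and 1174 normalised counts in chmru848 retinas, against 0, 0 and 1.66 in wt retinas (difference 5.21). lepb had 364, 696 and 2446 in chmru848 retinas, against 0.834, 2.31 and 3.64 in wt retinas (difference 4.96). In wt retinas lepa was at 0 in 5 of 7 animals and under 3 estimated reads in all of them, and lepb was under 3 reads in 4. Leptins are hormones that signal through the leptin receptor and Stat3. The receptor gene lepr also met both thresholds, with a difference of 3.70, and was left out because the study lists it. il11b, a cytokine of the interleukin-6 family, had 115, 179 and 239 normalised counts in chmru848 retinas, against 0, 0 and 0.832 in wt retinas (difference 3.29). Among the cytokines il11b was the most even, with an SD of 0.32 log2 units among chmru848 retinas.

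The remaining genes of this group act downstream of cytokines. tnfrsf9a, a receptor of the tumour necrosis factor (TNF) family, had 299 to 1432 normalised counts in chmru848 retinas and 2.25 to 125 in wt retinas. map3k14a, the kinase that starts non-canonical NF-kB signalling, had 833 to 1784 in chmru848 retinas and 83.0 to 145 in wt retinas. PTGS2, the inducible cyclooxygenase of prostaglandin synthesis, had 669 to 2807 in chmru848 retinas and 38.8 to 223 in wt retinas. In a list of 12 cytokine and signalling genes, 11 were matched, 2 were among the 92 and 3 were left out as listed by the study. All 6 others were higher in limma, where 19.9% of all tested genes were higher, with differences of 1.22 in il11a to 3.11 in cxcl8a. The list was chosen with earlier results of these data known, and the study reports il11a, il1b, il34 and cxcl8a as upregulated in these retinas. The count of 6 is therefore a description and no independent support. stat3 itself had 319 to 1277 normalised counts in chmru848 retinas and 61.0 to 178 in wt retinas (difference 2.48 ± 0.28 SE, adjusted p = 2.42e-06, limma). il1b, il34 and cxcl8a were higher on average, but their groups overlapped. Of 9 heat shock genes 7 were matched. Of the 5 that did not meet both thresholds 3 were higher, hsp70.1, hsp70.3 and hspb1, and 2 did not pass, beside 19.9% of all tested genes higher.

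Complement, interferon and TNF response genes numbered 5, with a median difference of 4.51. c7b, a component of the complement membrane attack complex, had 1988, 3503 and 4410 normalised counts in chmru848 retinas, against 4.24, 30.7 and 86.7 in wt retinas (difference 5.70). c4b, which acts early in the complement cascade, had 286, 320.2 and 774 in chmru848 retinas and was at 0 in 6 wt retinas and at 10.5 in wt retina 6. isg15, a ubiquitin-like protein induced by interferon, had 267, 845 and 2329 in chmru848 retinas, against 1.41, 5.25 and 14.1 in wt retinas (difference 4.51). For tnfaip2b, a zebrafish copy of a TNF-induced gene, the values were 232, 575 and 1401 in chmru848 retinas and 0, 0.762 and 22.4 in wt retinas. ifitm1, of a family of interferon-induced membrane proteins, had 221, 417 and 2635 in chmru848 retinas, against 1.66, 22.8 and 32.2 in wt retinas. Among chmru848 retinas, c7b, isg15, tnfaip2b and ifitm1 were lowest in retina 1 and c4b in retina 5.

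Markers of white blood cells were read beside these values, where 19.9% of all tested genes were higher and 23.7% lower. Of 9 macrophage and microglia markers 4 were matched, and 1 was higher, ptprc, with 5.81 to 45.2 normalised counts in chmru848 retinas and 0.761 to 12.7 in wt retinas (difference 0.54, adjusted p = 0.0417, limma). The macrophage receptor csf1ra stayed at 0 to 24.7 in chmru848 retinas and 0 to 13.1 in wt retinas (difference 0.06, adjusted p = 0.864, limma). The summed level of the 4 markers, most of it apoeb, was 14677 to 69809 in chmru848 retinas and 8674 to 39430 in wt retinas. Of 5 neutrophil markers 3 were matched, and their sum was 186 to 784 in chmru848 retinas and 66.3 to 127 in wt retinas. The neutrophil lysozyme gene lyz had 62.3 to 464 in chmru848 retinas and 2.09 to 22.9 in wt retinas (difference 2.74 ± 0.33 SE, adjusted p = 3.99e-06, limma), mmp13a was also higher and npsn was lower. The part of such cells in the gained genes was not tested.

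Genes of the matrix, cell adhesion, the cytoskeleton and axon growth numbered 8, with a median difference of 3.78. FLNC, filamin C, which cross-links actin, had 1569.6, 1880.3 and 4605 normalised counts in chmru848 retinas, against 0, 5.58 and 26.4 in wt retinas (difference 6.11). MMP9, a gelatinase that degrades basement membrane collagen, had 836, 2785 and 4550 in chmru848 retinas, against 7.35, 14.4 and 105 in wt retinas (difference 5.58). In MMP9 the wt value of 105 came from wt retina 6, and the 6 others lay between 7.35 and 22.6. gap43, a protein of growing and regenerating axons, had 7493, 11101 and 16374 in chmru848 retinas, against 547, 874 and 1760.1 in wt retinas (difference 3.53). ARHGAP42 had 646 to 1718 in chmru848 retinas and 32.3 to 55.7 in wt retinas, and the actin-binding gene TWF2 had 69.5 to 1108 in chmru848 retinas and 6.67 to 36.6 in wt retinas. TWF2 was low in 1 animal, chmru848 retina 5.

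Fibronectin, a glycoprotein of provisional matrix, was represented by 2 identifiers that share the symbol FN1. One (ENSDARG00000019815) had 824, 1429 and 3668 normalised counts in chmru848 retinas, against 87.3, 106 and 201 in wt retinas (difference 3.37). The other (ENSDARG00000006526) had 159.8, 477 and 2226 in chmru848 retinas, against 9.17, 52.4 and 113 in wt retinas (difference 3.01), the smallest difference of all 92 genes. Both were highest in chmru848 retina 5. In a list of 10 tissue remodelling genes, 7 were matched, and 4 of these were neither chosen nor listed by the study. Of the 4, mmp13a, mmp13b and plaua were higher, where 19.9% of all tested genes were higher. plek2 did not pass (adjusted p = 0.403, limma). This list too was chosen with earlier results of these data known, and mmp13a is also among the neutrophil markers above.

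cdh1, E-cadherin, the adhesion protein of epithelia, had 1383, 2782 and 3410 normalised counts in chmru848 retinas, against 16.8, 82.4 and 174 in wt retinas (difference 4.62). It was the only gene of 5 skin and cornea markers to be higher, where 19.9% of all tested genes were higher and 23.7% lower. krt91 and epcam were lower, and krt4 and krt5 did not pass, with krt4 at 576 to 15775 normalised counts in chmru848 retinas and 548 to 60875 in wt retinas (difference -1.06, adjusted p = 0.349, limma). The summed level of the 5 markers, which includes cdh1 itself, was 2814 to 27725 in chmru848 retinas and 1215 to 125027 in wt retinas. The range was wider among wt retinas. Because cdh1 was chosen for its high chmru848 values, the sum is not independent of it.

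A group of 7 regulators of transcription and RNA outside the bZIP class, not a full count of such genes, had a median difference of 3.66. SOX11, a factor of neural progenitors and young neurons, had 6614, 12383 and 21041 normalised counts in chmru848 retinas, against 496, 1058 and 1579 in wt retinas (difference 3.66). LIN28A, an RNA-binding protein that blocks let-7 microRNAs and is known in zebrafish from Muller glia reprogramming, had 76.9, 278 and 673 in chmru848 retinas, against 0, 7.47 and 38.2 in wt retinas (difference 3.01). LIN28A lay just inside the threshold. cbx7a, a Polycomb protein that binds methylated histones, had 10884, 19618 and 29103 in chmru848 retinas, against 535, 1047 and 2492 in wt retinas (difference 3.96). PRDM1, a repressor that in mouse retina steers precursors towards photoreceptors, had 2024 to 5112 in chmru848 retinas and 135 to 544 in wt retinas. SBNO2, in mammals a gene induced by interleukin-10 and Stat3, had 858 to 2798 in chmru848 retinas and 32.1 to 126 in wt retinas, and SALL1, a zinc finger factor, had 320 to 778 in chmru848 retinas and 4.98 to 18.1 in wt retinas.

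IRF8, a factor that macrophages and microglia need for their development, was the steadiest of all 92 genes among mutant animals. It had 351, 405 and 479.8 normalised counts in chmru848 retinas, against 4.80, 16.8 and 45.7 in wt retinas (difference 3.21), and its SD among chmru848 retinas was 0.14 log2 units. The 4 matched of 9 macrophage and microglia markers overlapped between the groups, where only 7.53% of all genes lay higher without overlap. The part of macrophages in the IRF8 values was not tested. Of the 5 Muller glia markers 4 were matched. gfap, the filament protein of reactive glia, had 235 to 690 normalised counts in chmru848 retinas and 14.7 to 112 in wt retinas (difference 2.64 ± 0.29 SE, adjusted p = 1.36e-06, limma), while rlbp1a, a retinoid-binding protein of Muller glia and RPE, had 471 to 2110 in chmru848 retinas and 3705 to 10771 in wt retinas (difference -2.75 ± 0.28 SE, adjusted p = 4.97e-07, limma). her4.1 was lower and apoea did not pass, where 19.9% of all tested genes were higher and 23.7% lower.

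Genes of mitochondria, redox chemistry and arginine breakdown numbered 5, with a median difference of 3.54. GPX4, the peroxidase that reduces lipid peroxides in membranes, was well expressed in both groups. It had 28291, 50033 and 69977 normalised counts in chmru848 retinas, against 4656, 5327 and 9496 in wt retinas (difference 3.04). higd1a, a hypoxia-inducible protein of the mitochondrial inner membrane, had 4940.2, 8975 and 11837 in chmru848 retinas, against 171, 358 and 927 in wt retinas (difference 4.30). ARG2, mitochondrial arginase, had 6459.6 to 11891 in chmru848 retinas and 413 to 1320.1 in wt retinas. cox17, a copper chaperone of respiratory complex IV, had 1639.6 to 3607 in chmru848 retinas and 28.7 to 852 in wt retinas, and afg3l1, of a family of mitochondrial proteases, had 425 to 1331 in chmru848 retinas and 13.6 to 79.9 in wt retinas. As a group these genes had a median SD of 0.42 log2 units among chmru848 retinas. This was not particular to them. The median SD was also 0.42 over the 3 genes of membrane traffic and vaults, and it was 0.32 over the 3 genes of translation.

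Genes of translation included BZW1 and ABCF1. BZW1, a regulator of start codon choice in mammals, had 3786, 4862 and 6432 normalised counts in chmru848 retinas, against 41.1, 99.8 and 3246 in wt retinas (difference 4.01). Its wt group was split, since wt retinas 6 and 7 had 2200.0 and 3246 while the other 5 lay between 41.1 and 256. The ratio of group means, 5.71, was the lowest of all 92 genes, and the groups were only 0.22 log2 units apart. Without wt retinas 6 and 7 the difference was 5.28. JUNB and BZW1 thus had the same pair of wt retinas apart from the rest, in JUNB below them and in BZW1 above. The pair also lay above the other wt retinas in further genes of the 92, which were not counted. In zgc:110286 wt retinas 6 and 7 had 46.5 and 67.6 normalised counts, against at most 8.41 in the others. In tnfrsf9a they had 125 and 82.8, against at most 24.6. ABCF1 had 4936 to 9408 normalised counts in chmru848 retinas and 273 to 1435 in wt retinas.

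The other 45 genes were not placed in a group. They include 7 identifiers without a symbol and many with clone names. GGACT, named after a mammalian enzyme that breaks down cross-links left by transglutaminases, had 317, 372 and 766 normalised counts in chmru848 retinas and was at 0 in all 7 wt retinas, and it was the only gene with no read in any of them. Against a floor of 3 reads per wt library it was at least 144-fold higher. TCIM had 18583, 28631 and 44471 normalised counts in chmru848 retinas, against 983, 1620.4 and 5677 in wt retinas (difference 4.03). WEE1, a kinase that holds back mitosis, had 808 to 3555 in chmru848 retinas and 148 to 279 in wt retinas. cry-dash, a cryptochrome related to DNA photolyases, had 1341 to 1853 in chmru848 retinas and 36.8 to 586 in wt retinas. slc22a4, an organic cation transporter, had 425 to 1633 in chmru848 retinas and 1.25 to 10.7 in 6 wt retinas, but 313 in wt retina 7. stm, known in zebrafish for shaping otoliths, had 288 to 1361 in chmru848 retinas and 4.24 to 162 in wt retinas.

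Further named genes outside the groups had differences of 3.04 to 3.90. lipib, of the lipase I family, had 2343, 8849 and 13154 normalised counts in chmru848 retinas, against 211, 417 and 517 in wt retinas (difference 3.90). rgs5b, which by its family shortens G protein signals, had 875 to 1892 in chmru848 retinas and 43.7 to 169.5 in wt retinas. sgk2b, of the serum and glucocorticoid kinase family, had 167 to 607 in chmru848 retinas and 0 to 52.4 in wt retinas. Their lack of overlap was again set by the choice. NOS1AP, an adaptor of neuronal nitric oxide synthase in mammals, had 412 to 1397 in chmru848 retinas and 33.5 to 85.7 in wt retinas. MUSTN1, known from muscle and skeletal repair in mammals, had 95.7 to 701 in chmru848 retinas and 5.67 to 28.1 in wt retinas, where the 2 matched skeletal muscle markers did not pass. aspdh had 96.5 to 587 in chmru848 retinas and 0 to 3.30 in wt retinas, with 4 of 7 wt retinas at 0, and TBATA had 159 to 601 in chmru848 retinas and 0 to 16.6 in wt retinas, again with 4 wt retinas at 0. btr04, mdp1, nufip1 and GLOD5 were gained by 3.29, 3.24, 3.04 and 3.13.

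Several genes outside the groups ranked high, most of them without a known name. ENSDARG00000114158 had 2154, 5891 and 9277 normalised counts in chmru848 retinas, against 5.62, 38.0 and 58.9 in wt retinas (difference 6.21). ENSDARG00000093707 had 617, 2041 and 3064 in chmru848 retinas, against 1.41, 9.62 and 23.6 in wt retinas (difference 5.31). si:ch73-335l21.4 had 2097, 3302 and 5083 in chmru848 retinas, against 2.42, 20.7 and 195 in wt retinas (difference 5.87). All 3 separated by more than 3 log2 units. brf1a had 1350.4 to 4858 in chmru848 retinas and 35.1 to 85.3 in wt retinas, si:dkey-227h16.2 had 3384 to 10943 in chmru848 retinas and 145 to 370.3 in wt retinas, and si:ch73-368j24.14 had 151 to 1495 in chmru848 retinas and 0 to 1.45 in wt retinas. Of the 57 genes found by name in RefSeq, 55 are protein coding and 2 are long non-coding RNAs, and they lay on 23 chromosomes with at most 5 on any 1. The other genes were not matched by name, and no chromosome is given for them here.

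Of the 92 genes, 14 share their symbol with another identifier, and reads from closely related copies can be divided between them by the counting. The table holds 12 identifiers that share a symbol with a chosen gene without being chosen. In limma 8 of these were higher, 1 was lower and 3 did not pass, where 19.9% of all tested genes were higher and 23.7% lower. PTGS2 (ENSDARG00000010276), the second cyclooxygenase copy, had 214 to 1291 normalised counts in chmru848 retinas and 16.8 to 233 in wt retinas (difference 3.10, adjusted p = 1.83e-05, limma) and stayed outside because its groups overlapped. The 2 further GGACT identifiers were at 74.5 to 312 and 40.4 to 129 in chmru848 retinas and at 0 or up to 1.52 in wt retinas, with differences of 2.94 and 2.26. JUNB (ENSDARG00000074378) had 2669 to 7461 in chmru848 retinas and 1380 to 2420.4 in wt retinas (difference 1.46, adjusted p = 2.41e-05, limma). Its wt values did not share the split of the chosen JUNB gene, and the second BZW1 identifier, with 490.0 to 1658 in chmru848 retinas and 208 to 485 in wt retinas, did not share that of BZW1. By contrast the second identifiers of SALL1, SBNO2 and ARHGAP42 differed by 0.29, 0.29 and 0.23 and did not pass, and that of TCIM was lower by limma, with 0 to 21.6 in chmru848 retinas and 9.2 to 46.0 in wt retinas.

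Variation among the mutant animals differed from gene to gene. The SD among chmru848 retinas had a median of 0.62 log2 units over the 92 genes (range 0.14 to 2.02), beside 0.51 over all tested genes, and the SD among wt retinas had a median of 0.49, beside 0.34. The spread among chmru848 retinas exceeded that among wt retinas in 58 of the 92 genes (63.0%), beside 76.1% of all tested genes. The demand for no overlap also acts on the spread within groups, and the genes were not matched for expression level. These SDs and shares are therefore not read as a result about the genes. The highest chmru848 retina had 3.58 times the normalised count of the lowest in the median gene, less than 2 times in 10 genes and more than 10 times in 10 genes.

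**Figure D3:**
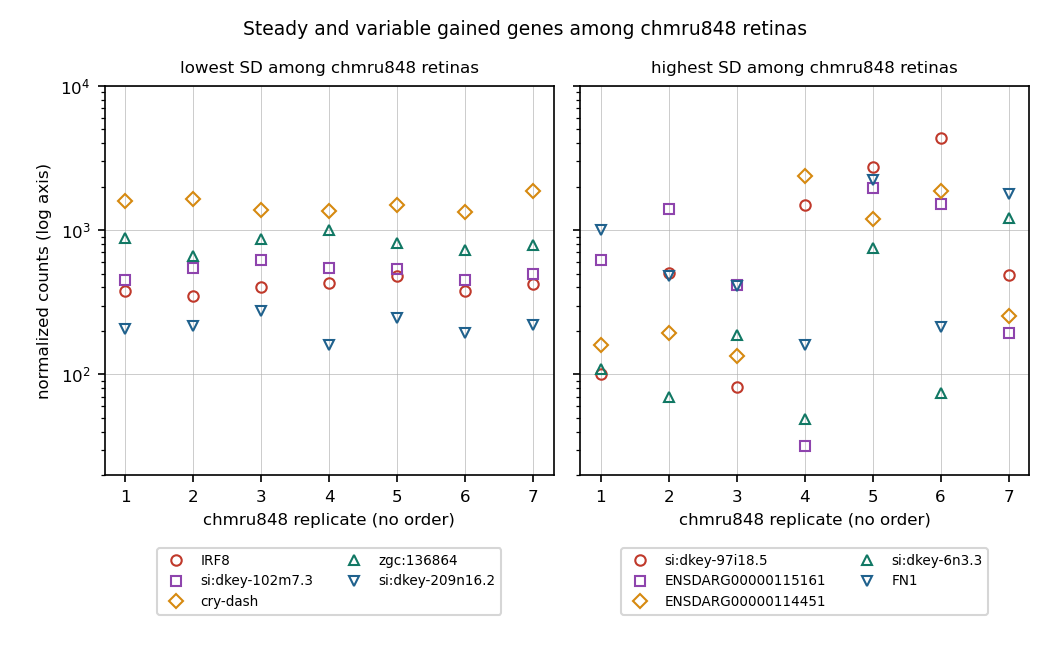
Normalised counts on a log axis in each of the 7 chmru848 retinas for the 5 gained genes with the lowest SD on the left and the 5 with the highest SD on the right; FN1 is the identifier ENSDARG00000006526, and replicate numbers carry no order. The steady genes stay within narrow bands, such as 351 to 479.8 for IRF8, while the variable genes spread widely, such as 32.0 to 1943 for ENSDARG00000115161.

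Among the steady genes, si:dkey-102m7.3 had 448 to 621 normalised counts in chmru848 retinas but 0 to 351 in wt retinas, so that the even level belonged to the mutant only. zgc:136864 had 659 to 1001 in chmru848 retinas and 11.8 to 39.8 in wt retinas, and si:dkey-209n16.2 had 161 to 273 in chmru848 retinas and 0 to 9.42 in wt retinas. The most variable genes were high in different animals. si:dkey-97i18.5 had 81.2, 505 and 4332 normalised counts in chmru848 retinas, against 0, 5.19 and 61.4 in wt retinas, and was highest in chmru848 retina 6. ENSDARG00000115161 was highest in retina 5 and ENSDARG00000114451, with 134, 254 and 2382 in chmru848 retinas and 0, 5.63 and 11.4 in wt retinas, in retina 4. si:dkey-6n3.3, with 48.9, 109 and 1206 in chmru848 retinas and 0, 0 and 7.15 in wt retinas, was highest in retina 7.

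The gained genes did not form 1 block that went up and down together among mutant animals. Over the 4186 pairs of these genes, the Pearson r across the 7 chmru848 retinas had a median of 0.07, with quartiles of -0.31 and 0.44. These r values rest on 7 points that share library depth, and they are given without a test. Set against the mean of the other 91 genes, 23 genes had an r above 0.5 and 28 an r below 0. sgk2b had the highest at 0.90, followed by RABAC1 at 0.89, zgc:136864 at 0.87 and lepa at 0.85, and ENSDARG00000115161 had the lowest at -0.65. Among the genes of the study's own lists, those most like the mean profile of the 92 over the 7 chmru848 retinas were rhbdf1a (r = 0.96), hk2 and f3a (0.90 each), hspb8 (0.89) and stat3 (0.87), followed by cflara, ppp1r15a, il12rb2, tmbim1a and bcl2l1 down to 0.80. These are the highest values from lists of 251 identifiers, and a search of that size over 7 points can give high r by itself. The profile itself ran only from -0.21 to 0.15 log2 units.

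**Figure D4:**
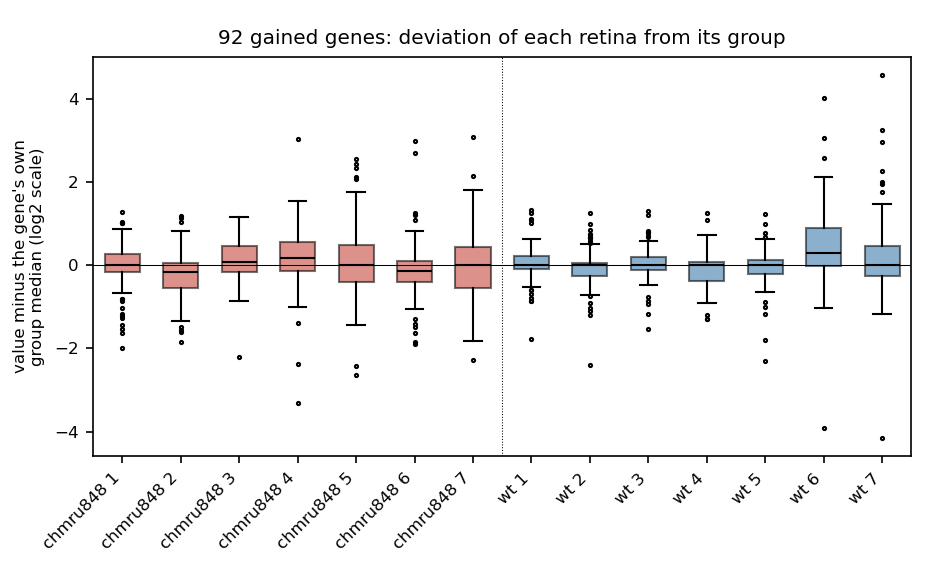
Deviation of each retina from the median of its own group for the 92 gained genes on the log2 scale, with chmru848 retinas in red on the left and wt retinas in blue on the right; boxes span the quartiles, black lines are medians, whiskers reach up to 1.5 times the box height and points lie beyond. The median of wt retina 6 lies at 0.29, above the other wt retinas, whose medians are at 0, and medians of chmru848 retinas run from -0.17 to 0.18.

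The mean of the 92 genes on the log2 scale was 10.30 to 10.66 in chmru848 retinas and 6.25 to 6.80 in wt retinas. The lowest chmru848 value of a gene was found most often in retina 2, in 21 genes (22.8%, beside 17.9% of all tested genes). Retina 6 followed with 18 (19.6%, beside 11.3%) and retina 5 with 17 (18.5%, beside 9.25%). Retina 1 was lowest in 10 genes (10.9%), beside 23.7% of all tested genes. The highest value was found most often in retina 4, in 22 genes, and the share over all tested genes was not counted for this. In the wt group, retina 6 had the highest wt value in 34 of the 92 genes (37.0%), beside 22.3% of all tested genes, and retina 7 in 19 genes (20.7%), beside 19.1%. wt retina 6 lay above the wt median in 60 of the 92 genes, again without a share over all tested genes to set beside it. Its mean over the 92 genes, 6.80, was the highest of the wt group. Without wt retina 6 the thresholds were met by 103 genes, and without wt retinas 6 and 7 by 114 genes, 87 of them among the 92. Its estimated depth, 19.4 M reads, was the third lowest of the wt group, and the part of this retina in these values was not tested.

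A retina left out of the choice has values that the rule did not use. The thresholds were therefore applied to 13 retinas at a time, and the left-out retina was then set against every retina of the other group. The retinas of the other group had been used in the choice. Each time 85 to 90 of the chosen genes were among the 92. The shares over all tested genes were not matched for the size of the difference. The shares below are thus a description and no independent support. Leaving out a chmru848 retina gave 89 to 97 genes, and 96.9 to 100% of them had the left-out retina above all wt retinas, with a median of 97.9% over the 7 animals. The same was true of 26.4 to 29.8% of all tested genes. Leaving out a wt retina gave 89 to 103 genes, and 92.0 to 100% had it below all chmru848 retinas, beside 18.3 to 20.3% of all tested genes. wt retina 7 had the lowest share, with 92 of 100 genes. The median difference of the left-out animal from the mean of the other group was 3.49 to 4.19 for chmru848 retinas and 3.41 to 3.98 for wt retinas.

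**Figure D5:**
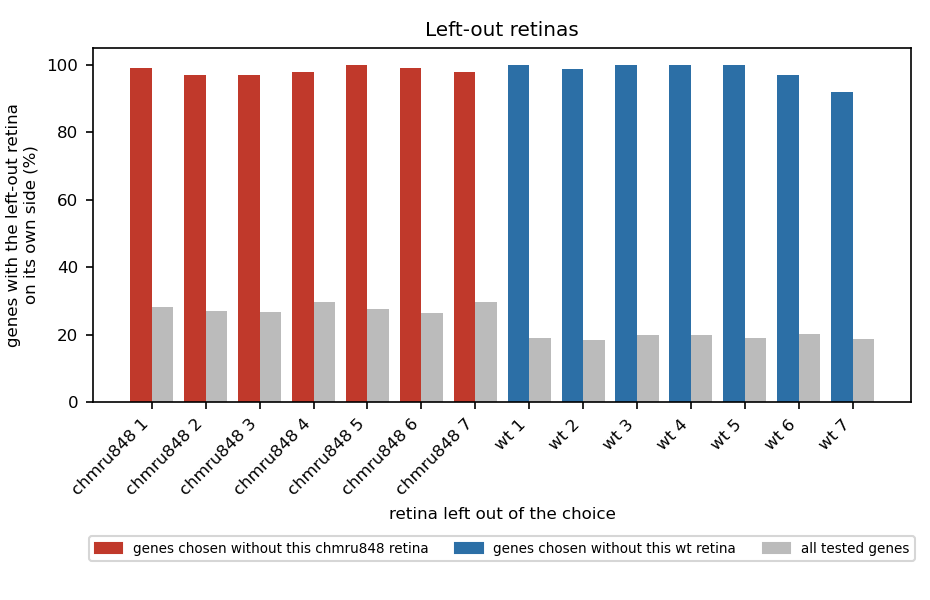
Percentage of genes for which the retina left out of the choice lay on its own group's side of every retina of the other group, for each of the 7 chmru848 retinas (red) and 7 wt retinas (blue), beside the same percentage over all tested genes (grey). The coloured bars range from 92.0 to 100% and the grey bars from 18.3 to 29.8%.

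The threshold of 3 divides genes that hardly differ. Just inside it lay si:ch73-158n7.2 at 3.03, LIN28A at 3.01 and FN1 (ENSDARG00000006526) at 3.01, and just outside it the chemokine gene cxcl8b.1 at 2.99, arpp21 at 2.99 and CYP27C1 at 2.98. With genes of the study's own lists included, a further 74 separated genes lay between 2.5 and 3. Counted in the same way, another 17 genes differed by 3 or more but overlapped, 6 of them through a single wt retina. The 13 genes left out as listed by the study had differences of 3.13 to 6.57, and the 3 with the largest were hspb9, a small heat shock protein, at 6.57, socs3a, a feedback inhibitor of Jak and Stat signalling, at 5.97 and cxcl18b, a chemokine, at 5.77.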

How the data were processed

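Bulk RNAseq of 7 chmru848 and 7 wt retinas was analysed from 1 deposited table of 19859 genes and 14 columns, all of them used. The authors trimmed reads with Trim Galore 0.6.7, aligned them to GRCz11 with STAR 2.7.10a, obtained gene counts from RSEM 1.3.3 and normalised these with DESeq2 1.38.3, per the submitters' processing notes. The deposited values are on a log2 scale after a variance-stabilizing transformation by the authors, which compresses differences between low counts, and run from 4.35, a count of 0, to 23.1. The transformation was undone, and the resulting normalised counts were checked against the base means of 250 listed genes. Depth was estimated from the step between low normalised counts, taken as 1 read.

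The members and the lists were chosen with earlier results of these data known, and the role groups after the values were seen. Genes were named if they were among the 25 with the largest difference, the 5 with the highest chmru848 mean, or the 5 with the lowest or highest SD among chmru848 retinas; other names were added after their values were seen. The 19751 genes with reads in 7 or more of the 14 retinas were tested with limma 3.58.1 (R 4.3.3), two-sided, with a variance trend and Benjamini-Hochberg adjustment, after tests on simulated data. Names came from a table that covered 18974 identifiers. Alternatives changed the threshold, scale, filter, centring, weights, replicate block and retinas used. The replicate numbers gave no sign of pairs, since 1 of 7 same-numbered pairs had deviations correlated above 0.1 and none was its own best match. A check on 7 such pairs cannot tell whether the groups shared clutches or dissection days. Sequences were not analysed here, and 1 of the 92 genes is not reported here by name.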

Additional observations from a re-analysis of the deposited data

Results flagged for a closer look

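For the 37 genes named by rule and 3 values per library, 80 groups of 7 retinas were searched for a single retina far from the 6 others, and 9 stood out. The genes were searched on the deposited log2 values. Chance gives about 1 in 20 such groups where values are normally distributed, which does not hold for a gene at 0 in most retinas of a group, so the 9 are not read against that rate. Of the 9, 6 were high values in wt retina 6. ATF3 had 514 normalised counts there, against 177 to 215 in the other wt retinas, TCIM had 5677 against 983 to 1904, and MMP9 had 105 against 7.35 to 22.6. si:ch73-335l21.4 had 195 in the same retina against 2.42 to 25.6, tnfaip2b had 22.4 against 0 to 1.2, and ENSDARG00000115161 had 0.830 where the other 6 wt retinas were at 0, a value of about 1 read, and any value above 0 would have stood out there. All 6 values stayed below every chmru848 retina of the same gene, which the choice of these genes requires. In wt retina 7, GPX4 had 9496 normalised counts, against 4656 to 5630 in the others. In chmru848 retina 6, JUNB had 4109, against 8934 to 14019 in the other chmru848 retinas, and MVP had 2954, against 5282 to 7132. The cause of these values was not tested.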

How the results depend on the processing

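The number of chosen genes depended most on the threshold and on the scale. It was 159 with a difference of 2.5 and 61 with 3.5, and with the log2 ratio of mean normalised counts in place of the deposited scale it was 272 with a pseudocount of 0.5 and 180 with 5, each holding 88 of the 92 genes. It was 107 without the demand for separation, 104 after median centring and 100 after quantile normalization. Leaving out 1 retina gave 89 to 103 genes. The median wt level of 38.4 normalised counts became 27.8 with group medians and 26.8 without wt retinas 6 and 7, a setting added after seeing the data, and 33.1 to 42.7 with 1 retina left out. The median gain was 3.75 to 3.89 with 1 retina left out. Over all genes, 3940 were higher and 4687 lower; with a replicate block in the fit the counts were 4036 and 4791, and all 92 genes stayed past the threshold. The filter at a mean 2 units above the lowest value tested and called 88 of them. Among the 37 genes named by rule none reversed under any setting. The lack of reversals, and the 92 genes staying past the threshold, follow from the choice of large differences without overlap. The log2 ratio moved 22 of the 37 by more than their spread with a pseudocount of 0.5, and 17 with 5. The reason is that the deposited scale compresses low values. At this depth, wt values under 3 reads cannot be told from 0.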
